A study of Mus musculus with 10 samples.

Results

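Transcripts of the receptors for immunoglobulin G (IgG) were examined in 10 bulk tumors grown under the skin of female C57BL/6J mice that received the cells at 7 to 8 weeks of age. The genes were chosen by symbol and are the activating receptors Fcgr1, Fcgr3 and Fcgr4, the inhibitory receptor Fcgr2b and the shared signaling chain Fcer1g. All 5 were among the 29890 listed genes and among the 15276 genes that were tested, and each was above 2 TPM in every tumor. Levels are in TPM, a unit scaled to transcript length and to each library, so levels of different genes can be set side by side, but it keeps no read depth. All tumors came from B2905-M4, a mouse melanoma line, and 5 carried an Adamts7 overexpression construct (Adamts7 is a secreted metalloproteinase of the extracellular matrix) while 5 carried the vector alone. No tumor received immunotherapy. The design text places harvest on day 35 for 2 Adamts7 tumors, on day 45 for 3 tumors of each kind and on day 50 for 2 vector tumors. It says that Adamts7 tumors grew faster and ties no day to a tumor, so harvest day and group cannot be told apart.

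The labels were checked against the overexpressed gene and against melanocyte markers. Adamts7 lay between 18.2 and 96.0 TPM in Adamts7 tumors, against 6.49 to 28.3 TPM in vector tumors, and the tumor labelled Adamts7 5 was the lowest of its group, below vector tumors 3 and 5. Vector tumors 3 and 5 also stood apart by their low pigment transcripts. The melanosome gene Pmel measured 6.13 TPM in vector tumor 3 and 274 TPM in vector tumor 5, and between 1107 and 8390 TPM in the other 8 tumors. The mean of 15 macrophage markers ranged from 4.82 to 6.49 log2(TPM + 1) over Adamts7 tumors, against 7.38 for vector tumor 3, 7.28 for vector tumor 5 and 5.35 to 5.85 for the other 3 vector tumors. The receptors' fold changes and the medians of the gene lists are therefore given with and without vector tumors 3 and 5. In bulk tissue, fewer cells of a type and less RNA per cell cannot be told apart.

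IgG receptors link antibodies to the cells that act on them. In the mouse, Fcgr1 encodes the high-affinity receptor and Fcgr3 and Fcgr4 encode activating receptors of lower affinity, and all of them signal through the FcR gamma chain encoded by Fcer1g, whose cytoplasmic tail carries an activating tyrosine motif (ITAM) that recruits the kinase Syk. Fcgr2b encodes the inhibitory receptor, whose own tail carries an inhibitory motif (ITIM) that recruits the phosphatase encoded by Inpp5d. Macrophages and monocytes carry most of these receptors, natural killer cells carry Fcgr3, and B cells carry Fcgr2b alone. Interferon-gamma is a known inducer of Fcgr1 and Fcgr4 in myeloid cells. Fcer1g also serves receptors that bind no antibody.

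Promoter stretches of the 3 activating receptors, which share a signaling chain, are shown as background. Any link between these stretches and the receptor levels was not tested. Each stretch holds the 250 bases before an annotated start, taken from RefSeq with the build of its table, which is older than the build mm39 of the expression files. All 5 genes matched the table, Fcgr3 with 2 starts, of which the upstream one is shown. Capitals mark matches to the interferon response motif (GAAA, any 2 bases, GAAA) and the PU.1 core GAGGAA, both searched on both strands.
Fcgr4 upstream stretch, GRCm38.p6 chr1:171018676-171018925, plus strand: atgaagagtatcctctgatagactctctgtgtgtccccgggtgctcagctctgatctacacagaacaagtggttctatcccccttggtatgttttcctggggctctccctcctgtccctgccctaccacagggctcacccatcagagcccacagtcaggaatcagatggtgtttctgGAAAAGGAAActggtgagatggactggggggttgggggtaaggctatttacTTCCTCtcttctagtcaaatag
Fcgr1 upstream stretch, GRCm38.p6 chr3:96293970-96294219, minus strand: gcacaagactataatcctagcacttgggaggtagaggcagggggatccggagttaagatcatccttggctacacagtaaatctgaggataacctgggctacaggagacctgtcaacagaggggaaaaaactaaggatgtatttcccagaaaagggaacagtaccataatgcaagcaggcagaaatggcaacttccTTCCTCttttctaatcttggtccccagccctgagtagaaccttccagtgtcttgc
Fcgr3 upstream stretch, GRCm38.p6 chr1:171059404-171059653, minus strand: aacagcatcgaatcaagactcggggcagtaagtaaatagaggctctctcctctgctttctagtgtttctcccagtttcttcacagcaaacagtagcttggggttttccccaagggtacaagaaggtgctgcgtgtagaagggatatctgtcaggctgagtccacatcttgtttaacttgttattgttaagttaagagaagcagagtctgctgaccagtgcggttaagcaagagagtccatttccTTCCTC
The Fcgr4 stretch holds the interferon response motif as GAAAAGGAAA, 73 to 64 bases before the start, and this motif occurs in 2.98% of the 32851 stretches of this length in the table. All 3 hold GAGGAA on the opposite strand, and 23.3% of the stretches hold it on either strand. No match to either motif was present in the stretches of Fcgr2b and Fcer1g. A match describes letters and no site, and none of the marked matches overlap.

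None of the 5 genes passed the test between Adamts7 and vector tumors, and all 5 had lower mean levels in Adamts7 tumors with wide overlap. The overexpressed gene Adamts7 did not pass this test either, with a log2 fold change of 2.21 (SE 0.54, limma adjusted p = 0.104). The test was limma on log2(TPM + 1) with adjustment over all tested genes, by which 34 genes, or 0.223% of those tested, were called at an adjusted p of 0.05, with 0.196% called lower. All 5 log2 fold changes were negative, as were 60.2% of those of all tested genes. At an unadjusted p of 0.05, Fcgr4 and Fcgr2b were lower, as were 15.3% of tested genes. None was lower without overlap of the groups, beside 3.78% of tested genes. The median log2 fold change of the 5 genes was -0.84, beside -0.10 for all tested genes. Without vector tumors 3 and 5 it was 0.14, with 2 of the 5 negative, beside a median of -0.10 for all tested genes, 64.5% of which were negative, and 0 of 5 were called where 0.183% of tested genes were. When the tumor labelled Adamts7 5 was also dropped, 0 of 5 were called and 2 of 5 were negative, beside 5.24% and 61.0% of tested genes. With tumors weighted by limma, 0 of 5 were called and 2 of 5 negative, beside 7.98% and 61.4%.

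**Figure D1:**
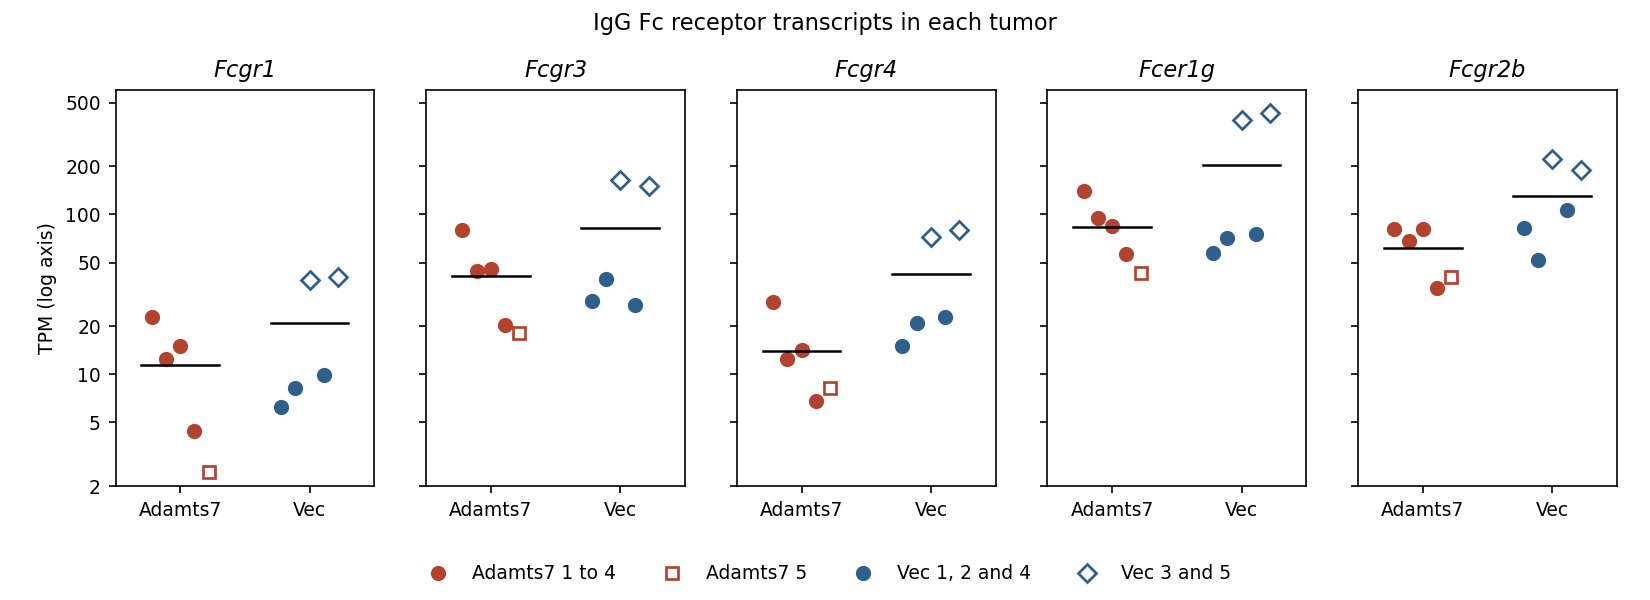
Transcript level of each gene in TPM on a log axis, with 1 point per tumor, Adamts7 tumors left and vector (Vec) tumors right, and a black line at the group mean. Vector tumors 3 and 5 (open diamonds) were the highest for all 5 genes, while Adamts7 tumors 1 to 4 (filled circles) and the tumor labelled Adamts7 5 (open square) overlapped with vector tumors 1, 2 and 4.

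Among the activating receptors, Fcgr4 had the lowest fold change. Fcgr4 measured 28.4, 12.4, 14.1 and 6.79 TPM across Adamts7 tumors 1 to 4 and 8.21 TPM for the tumor labelled Adamts7 5, against 15.1, 20.9, 72.6, 23.0 and 79.7 TPM across vector tumors 1 to 5. Thus 4 of 5 Adamts7 tumors lay below every vector tumor, and Adamts7 tumor 1 lay above 3 of them. The means were 13.98 ± 8.59 TPM among Adamts7 tumors and 42.2 ± 31.2 TPM among vector tumors (SD, n = 5 each). The log2 fold change was -1.37 (SE 0.51, 95% interval -2.51 to -0.24), which did not pass after adjustment (limma, adjusted p = 0.190). Without vector tumors 3 and 5 it was -0.61 (SE 0.40, adjusted p = 0.566).

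In the authors' deposited table Fcgr4 was the only one of the 5 genes with an adjusted p below 0.05. Its deposited log2 fold change was -1.4996 (SE 0.52, adjusted p = 0.0479), where 5.48% of the genes with an adjusted p were called with a negative fold change in the authors' deposited table. The authors' deposited table gave Fcgr2b -0.98 (adjusted p = 0.107) and Fcer1g -1.17 (adjusted p = 0.206). It gave Fcgr3 -0.88 (adjusted p = 0.358) and Fcgr1 -0.77 (adjusted p = 0.488) in the authors' deposited table. The direction of the deposited values was read from Adamts7 itself, which had 2.32 there.

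Fcgr1, the high-affinity receptor and the least abundant of the family in 9 of 10 tumors, had the widest range over all 10 tumors. It measured 22.9, 12.4, 15.0 and 4.39 TPM across Adamts7 tumors 1 to 4 and 2.46 TPM for the tumor labelled Adamts7 5, against 6.20, 8.25, 38.7, 9.95 and 40.8 TPM across vector tumors 1 to 5. The Adamts7 tumors lay on both sides of vector tumors 1, 2 and 4, with 3 above all of these and 2 below all of them. The highest tumor exceeded the lowest 16.6-fold over all 10 tumors, 9.29-fold among Adamts7 tumors, 6.58-fold among vector tumors and 1.60-fold among vector tumors 1, 2 and 4. Among vector tumors alone the range of Fcer1g was wider, at 7.47-fold. The means were 11.4 ± 8.28 TPM among Adamts7 tumors and 20.8 ± 17.4 TPM among vector tumors (SD, n = 5 each), with a log2 fold change of -0.73 (SE 0.65, 95% interval -2.18 to 0.71, limma adjusted p = 0.519). Its sign turned without vector tumors 3 and 5, to 0.14 (SE 0.59).

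Fcgr3, the activating receptor shared by myeloid and natural killer cells, had a similar pattern. Fcgr3 measured 79.5, 44.2, 45.3 and 20.3 TPM across Adamts7 tumors 1 to 4 and 18.0 TPM for the tumor labelled Adamts7 5, against 28.7, 39.7, 163, 26.9 and 150 TPM across vector tumors 1 to 5. Here too 3 Adamts7 tumors exceeded vector tumors 1, 2 and 4 and 2 lay below them. The means were 41.5 ± 24.8 TPM among Adamts7 tumors and 81.6 ± 68.6 TPM among vector tumors (SD, n = 5 each), and the log2 fold change was -0.72 (SE 0.60, 95% interval -2.04 to 0.60, limma adjusted p = 0.491). Without vector tumors 3 and 5 it was 0.19 (SE 0.45).

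Fcer1g, the signaling chain, was the most abundant of the 5 transcripts on average. It measured 139, 95.6, 84.5 and 56.2 TPM across Adamts7 tumors 1 to 4 and 43.1 TPM for the tumor labelled Adamts7 5, against 57.4, 70.8, 387, 75.1 and 429 TPM across vector tumors 1 to 5. Vector tumors 3 and 5 had on average 6.02 times the Fcer1g level of the other 3 vector tumors, the largest such ratio of the family, while Fcgr2b had the smallest at 2.58. The means were 83.7 ± 37.5 TPM among Adamts7 tumors and 204 ± 187 TPM among vector tumors (SD, n = 5 each). The log2 fold change was -0.84 (SE 0.61, 95% interval -2.18 to 0.51, limma adjusted p = 0.432), and 0.19 (SE 0.34) without vector tumors 3 and 5.

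Fcgr2b, the inhibitory receptor, had the narrowest range over all 10 tumors. Fcgr2b measured 80.9, 68.4, 81.6 and 34.4 TPM across Adamts7 tumors 1 to 4 and 40.7 TPM for the tumor labelled Adamts7 5, against 82.7, 52.0, 223, 106 and 190 TPM across vector tumors 1 to 5. The highest tumor exceeded the lowest 6.49-fold, but among vector tumors 1, 2 and 4 its range was the widest of the 5 genes, at 2.04-fold. No Adamts7 tumor reached the level of vector tumors 1, 3, 4 or 5. The means were 61.2 ± 22.3 TPM among Adamts7 tumors and 131 ± 72.8 TPM among vector tumors (SD, n = 5 each). The log2 fold change was -0.98 (SE 0.41, 95% interval -1.87 to -0.08) and did not pass after adjustment (limma, adjusted p = 0.221). It was -0.41 (SE 0.34) without vector tumors 3 and 5.

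**Figure D2:**
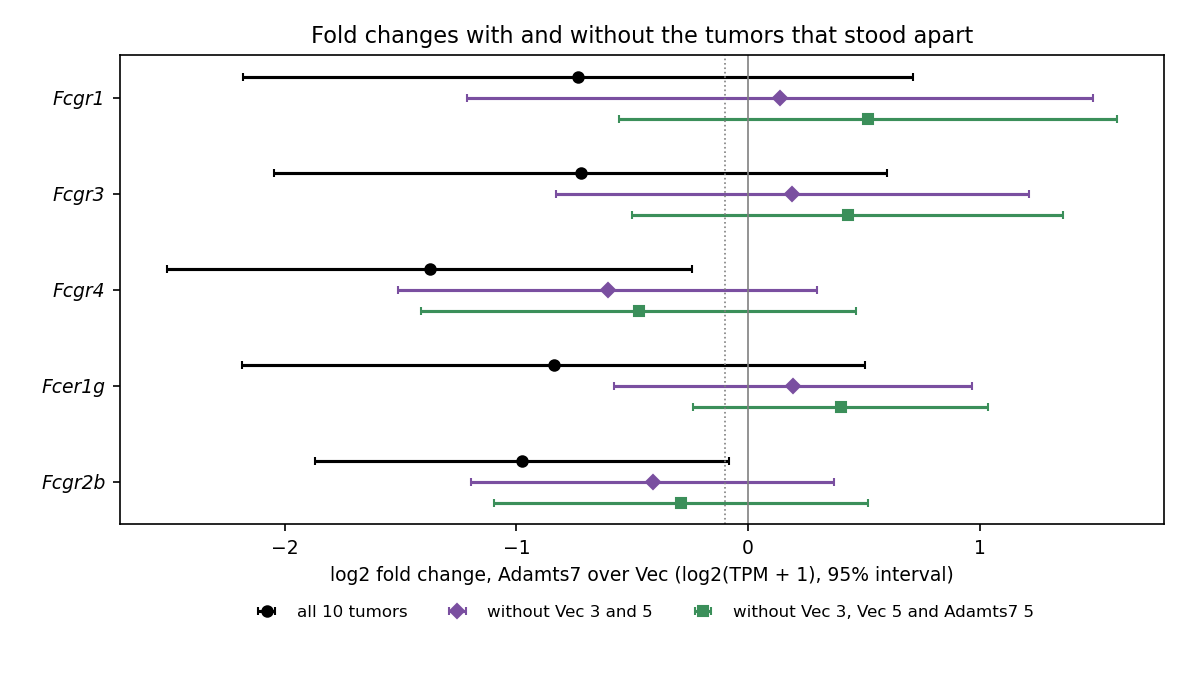
Log2 fold change of each gene, Adamts7 over vector, on the log2(TPM + 1) scale with its 95% interval from limma, for all 10 tumors (black circles), for 8 tumors with vector tumors 3 and 5 left out (purple diamonds) and for 7 tumors with the tumor labelled Adamts7 5 left out too (green squares). The dotted line is the median of all tested genes, -0.10. Fcgr4 and Fcgr2b stayed negative in all 3 fits, while Fcgr1, Fcgr3 and Fcer1g turned positive in the fits without vector tumors 3 and 5, and every interval without these tumors held 0.

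The order of the levels was nearly the same in all tumors. Fcer1g was highest, followed by Fcgr2b, Fcgr3, Fcgr4 and Fcgr1, in 7 of 10 tumors. Fcgr2b exceeded Fcer1g in 2 vector tumors, 1 and 4, and Fcgr1 exceeded Fcgr4 in Adamts7 tumor 3. Between Fcgr2b and Fcgr3, and between Fcgr3 and Fcgr4, the order held in 10 of 10 tumors. Reads of Fcgr2b and Fcgr3 can be confused to a small degree, since 7.38% of the 75-base windows of the longest Fcgr3 transcript also occur in Fcgr2b transcripts of GENCODE M21, with a longest common run of 129 bases. No other pair of the 5 genes shares a window of that length.

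Relative to the macrophage markers, Fcgr4 was lower in Adamts7 tumors, and it was the only one of the 5 genes whose groups did not overlap. Fcgr4 minus the mean of the 15 macrophage markers was -1.62, -2.20, -1.79 and -2.08 on the log2(TPM + 1) scale in Adamts7 tumors 1 to 4 and -1.62 in the tumor labelled Adamts7 5, against -1.55, -1.39, -1.18, -0.77 and -0.95 in vector tumors 1 to 5. The group means differed by -0.69, the nearest tumors of the groups were close, and the lowest vector value was the same without vector tumors 3 and 5. Of all tested genes, 0.786% had values relative to these markers that were lower in Adamts7 tumors without overlap. The list was chosen with earlier results of these data known, so no test is given. Relative to the mean of 10 monocyte markers, Fcgr4 again did not overlap, at -0.04 to 0.21 among Adamts7 tumors and 0.38 to 0.86 among vector tumors, as did 0.602% of tested genes in that direction. Relative to the mean of 11 dendritic cell markers the groups overlapped.

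The other genes overlapped relative to the macrophage markers. Fcgr1 lay between -3.03 and -1.71 among Adamts7 tumors and between -2.71 and -1.89 among vector tumors, and Fcgr3 between -0.63 and -0.16 among Adamts7 tumors and between -0.67 and -0.03 among vector tumors. Fcgr2b was at -0.14 to 0.66 among Adamts7 tumors and -0.12 to 1.39 among vector tumors. Fcer1g was nearly constant among Adamts7 tumors, at 0.64 to 0.79, and spread from 0.31 to 1.47 among vector tumors.

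**Figure D3:**
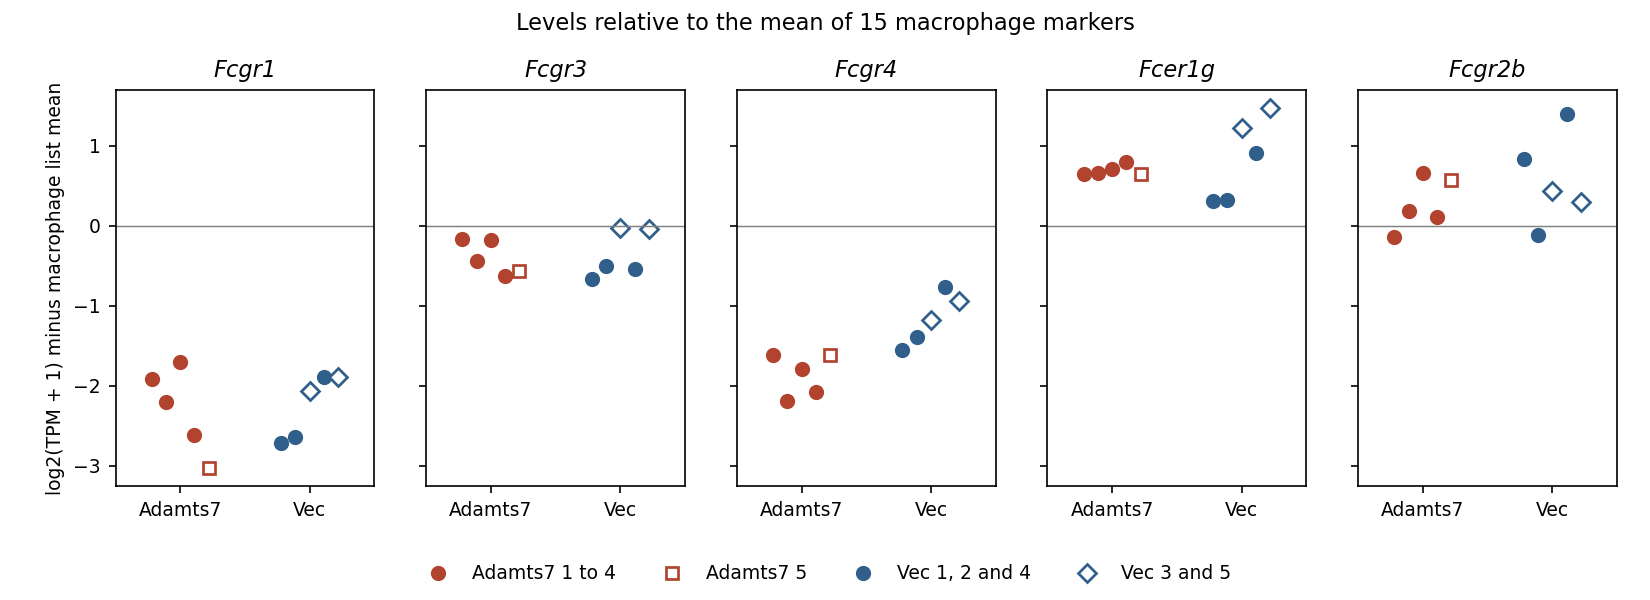
Level of each gene minus the mean of 15 macrophage markers, in log2(TPM + 1) units, with 1 point per tumor, Adamts7 tumors left and vector (Vec) tumors right. The Adamts7 tumors lie at or below -1.62 for Fcgr4 and the vector tumors at or above -1.55, while the groups overlap for the other 4 genes.

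Within the family, the share of Fcgr4 among the activating receptors was lower in most Adamts7 tumors, whereas the balance of activating to inhibitory receptors overlapped. The TPM ratio of Fcgr4 to Fcgr3 was 0.357, 0.281, 0.311 and 0.335 in Adamts7 tumors 1 to 4 and 0.456 in the tumor labelled Adamts7 5, against 0.525, 0.527, 0.445, 0.853 and 0.532 in vector tumors 1 to 5. The groups overlapped only through the tumor labelled Adamts7 5 and vector tumor 3. The ratio of Fcgr4 to Fcgr1 was 1.24, 1.002, 0.941 and 1.55 in Adamts7 tumors 1 to 4 and 3.34 in the tumor labelled Adamts7 5, against 1.87 to 2.54 in vector tumors. The tumor labelled Adamts7 5 lay above all vector tumors and the other 4 Adamts7 tumors below all of them. The ratio of Fcgr4 to Fcer1g was 0.121 to 0.204 among Adamts7 tumors and 0.186 to 0.306 among vector tumors.

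The ratios of activating receptors to Fcgr2b did not separate the groups. Fcgr1 to Fcgr2b averaged 0.167 ± 0.082 among Adamts7 tumors and 0.143 ± 0.058 among vector tumors, and Fcgr3 to Fcgr2b averaged 0.643 ± 0.204 among Adamts7 tumors and 0.576 ± 0.255 among vector tumors (SD, n = 5 each). Fcgr4 to Fcgr2b averaged 0.221 ± 0.074 among Adamts7 tumors and 0.309 ± 0.107 among vector tumors (SD, n = 5 each). The mean log2 ratios to Fcgr2b differed by 0.16 for Fcgr1, 0.25 for Fcgr3 and -0.46 for Fcgr4, and by 0.52, 0.61 and -0.24 when vector tumors 3 and 5 were left out. The groups overlapped in all 10 ratios that the 5 genes allow. As these are scores over chosen genes, no p is given.

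**Figure D4:**
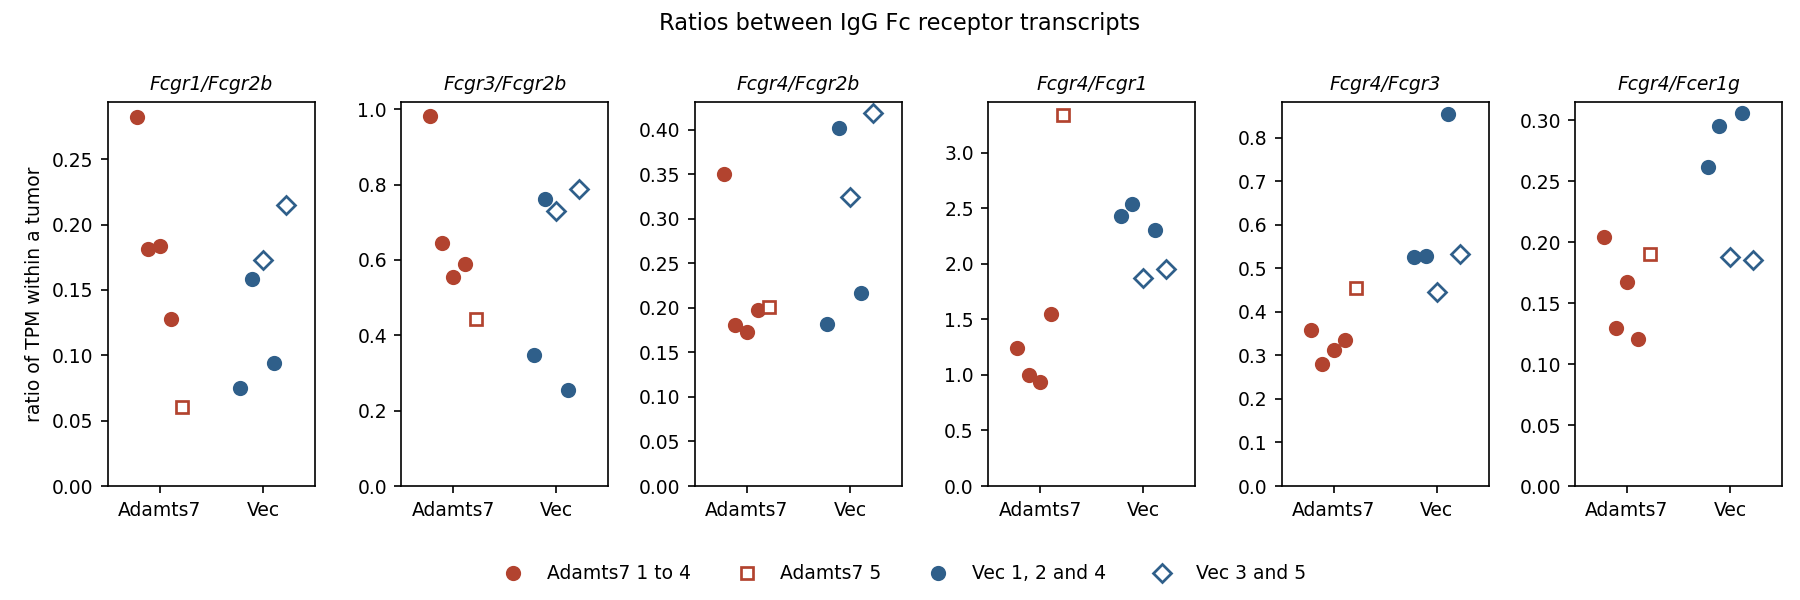
Ratio of TPM values within a tumor on linear axes that start at 0, with 1 point per tumor, Adamts7 tumors left and vector (Vec) tumors right. In the ratio of Fcgr4 to Fcgr3, Adamts7 tumors 1 to 4 lie at or below 0.357 and all vector tumors at or above 0.445, with the tumor labelled Adamts7 5 at 0.456. The ratios to the inhibitory receptor Fcgr2b overlap.

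The genes most like each receptor differed from receptor to receptor. Likeness was the root mean square difference between log2(TPM + 1) profiles over the 10 tumors, each centred on its own mean, and is given as a description. For Fcgr3 the nearest genes were C1qc (0.138), Ctsh (0.142) and C1qb (0.148), of which the C1q genes encode the complement protein that also binds IgG. For Fcer1g they were Cd53 (0.159), a leukocyte tetraspanin, Cyth4 (0.175) and Xist (0.198), the noncoding RNA of X inactivation. For Fcgr4 they were Sectm1a (0.175), Trim30a (0.176) and Naaa (0.182). For Fcgr1 they were P2ry6 (0.220), a nucleotide receptor, Alox5ap (0.255), of leukotriene synthesis, and Gna15 (0.256).

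Fcgr2b was nearest to Ifit3b (0.188), an interferon-induced gene, Pdgfa (0.198), a growth factor, and Zc3h12a (0.199), an RNA-degrading nuclease. Among the 5 genes themselves Fcgr3 and Fcer1g were most alike (0.253) and Fcgr1 and Fcgr2b least (0.569). Without vector tumors 3 and 5 these 2 values were 0.241 and 0.602. Of the 15 nearest genes named above, 4 were then still among the nearest 3. They were P2ry6 and Alox5ap for Fcgr1 and Ifit3b and Zc3h12a for Fcgr2b. None was kept for Fcgr3, Fcgr4 or Fcer1g, and the genes nearest to Fcgr3 were then Snai1, Gas6 and Egr2 in place of Ctsh and the C1q genes.

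Other Fc receptors were few. Of the 12 listed, 4 passed the filter of a mean of 1 TPM. Of these 4, 0 were called by limma and 2 were lower at an unadjusted p of 0.05. Of all tested genes, 0.196% were called lower and 15.3% were lower at that unadjusted p. The median log2 fold change of the 4 genes was -0.48, or -0.21 without vector tumors 3 and 5. Fcgrt, which encodes the neonatal receptor that recycles IgG, had similar means in the groups, at 110 ± 39.7 TPM among Adamts7 tumors and 99.4 ± 9.18 TPM among vector tumors (SD, n = 5 each, log2 fold change 0.05, SE 0.27). Trim21, a cytosolic receptor for antibody, was at 9.13 ± 2.61 TPM among Adamts7 tumors and 20.5 ± 9.80 TPM among vector tumors (SD, n = 5 each), with a log2 fold change of -1.003 (SE 0.31, limma adjusted p = 0.142). The IgE receptor chain genes did not pass, with a log2 fold change of -0.85 for Fcer1a (SE 0.32, limma adjusted p = 0.196) and -0.10 for Ms4a2 (SE 0.29). Fcer2a, Fcmr, Pigr, Fcrl1, Fcrl5, Fcrl6, Fcrla and Fcrlb lay below the filter.

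The ligand side was measured by immunoglobulin constant genes and by the deposited repertoire. Of 12 listed constant and joining chain genes 10 were tested. All 10 had negative log2 fold changes, and 0 were called by limma, with 3 lower at an unadjusted p of 0.05. Of all tested genes, 60.2% were negative, 0.196% were called lower and 15.3% were lower at that unadjusted p. The median of the 10 genes was -1.06, or -0.70 without vector tumors 3 and 5. The IgG genes were low and uneven. Ighg2b was at 26.8 TPM in vector tumor 1, 5.56 TPM in Adamts7 tumor 1 and at most 1.11 TPM in the other 8 tumors. Ighg2c averaged 1.84 ± 1.19 TPM among Adamts7 tumors and 5.63 ± 7.20 TPM among vector tumors, and Ighg1 averaged 1.93 ± 3.12 TPM among Adamts7 tumors and 3.02 ± 5.79 TPM among vector tumors (SD, n = 5 each). Their log2 fold changes were -0.40 (SE 0.77) for Ighg2c, -0.09 (SE 0.78) for Ighg1 and -0.77 (SE 0.85) for Ighg2b, and Ighg3 lay below the filter.

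Other isotypes had larger differences that did not pass either. Ighm averaged 13.9 ± 8.64 TPM among Adamts7 tumors and 40.1 ± 23.8 TPM among vector tumors, and Igha 3.19 ± 2.85 TPM among Adamts7 tumors and 19.01 ± 19.2 TPM among vector tumors (SD, n = 5 each). Igha reached 41.98 TPM in vector tumor 3 and 37.97 TPM in vector tumor 5 and stayed at or below 7.67 TPM elsewhere. The log2 fold changes were -1.38 (SE 0.53, limma adjusted p = 0.198) for Ighm and -1.86 (SE 0.73, limma adjusted p = 0.203) for Igha. They were -0.87 and -0.74, in the same order, without vector tumors 3 and 5. The remaining tested genes Igkc, Iglc1, Iglc2, Iglc3 and Jchain had log2 fold changes from -1.72 for Iglc1 to -0.97 for Iglc3, and Ighd lay below the filter.

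In the repertoire, the IgG share of heavy chains was 20.4%, 32.5%, 100% and 100% in Adamts7 tumors 1 to 4 and 52.2% in the tumor labelled Adamts7 5, against 45.6%, 57.1%, 8.65%, 46.7% and 5.71% in vector tumors 1 to 5. The groups overlapped, and the difference of the means, 28.3 percentage points, did not pass an exact two-sided permutation test (p = 0.206, adjusted p = 0.413 over 8 heavy chain measures). It was 11.2 percentage points without vector tumors 3 and 5. These shares rest on few sequences. The deposited heavy chain clone count was 6 to 61 among Adamts7 tumors and 16 to 213 among vector tumors. Clonotypes, deposited as a separate measure, numbered 1 to 28 among Adamts7 tumors and 9 to 47 among vector tumors. Adamts7 tumors 3 and 4, both at 100%, had clone counts of 9 and 6 and clonotype counts of 1 and 4. Neither count passed (exact permutation p = 0.119 for the clone count and 0.159 for clonotypes, adjusted p = 0.413 for each). The IgA share was 0.0% to 14.8% among Adamts7 tumors and 2.94% to 78.1% among vector tumors, and it failed the adjustment (exact permutation p = 0.0238, adjusted p = 0.190). Its group difference was -41.3 percentage points, and -24.6 without vector tumors 3 and 5.

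Signaling genes downstream of the receptors were lower on average, and none was called. The counts of negative and of lower genes in this and the following lists stand beside 60.2% negative and 15.3% lower at an unadjusted p of 0.05 among all tested genes. Of 18 genes of ITAM signaling 16 were negative, their median log2 fold change was -0.81, and 0 were called by limma, with 5 lower at an unadjusted p of 0.05. Syk, the kinase that binds the ITAM, was at 6.60 ± 3.68 TPM among Adamts7 tumors and 15.0 ± 10.1 TPM among vector tumors (SD, n = 5 each). The 3 genes of smallest p were the kinase genes Prkcd (-1.28, SE 0.50) and Lyn (-0.83, SE 0.37) and the adaptor gene Card9 (-1.31, SE 0.58). On the inhibitory side, 11 of 13 tested genes were negative with a median of -0.57, 0 called by limma and 4 lower at an unadjusted p of 0.05. They included the phosphatase genes Inppl1 (-0.32, SE 0.14) and Ptpn6 (-0.63, SE 0.27), while Inpp5d, whose product binds the tail of the Fcgr2b receptor, had -0.68 (SE 0.50). Without vector tumors 3 and 5 the medians were -0.21 and -0.20, in the same order.

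Receptors that share Fcer1g or its relative Tyrobp, and genes of phagocytosis, were also lower on average. All 12 tested partner genes were negative, with a median of -0.93, 0 called by limma and 4 lower at an unadjusted p of 0.05. The smallest p were those of Ncr1 (-1.47, SE 0.48), a natural killer cell receptor, Trem2 (-1.05, SE 0.38), a lipid receptor of macrophages, and Clec5a (-1.62, SE 0.62). The median was 0.04 without vector tumors 3 and 5, beside 0.14 for the IgG receptors. Of 15 genes of phagocytosis and the oxidative burst 12 were negative, with a median of -0.94, 0 called by limma and 5 lower at an unadjusted p of 0.05, led by the oxidase subunit genes Cyba (-0.63, SE 0.23) and Ncf4 (-1.76, SE 0.65) and by Coro1a (-1.33, SE 0.53). The median of this list was -0.22 without vector tumors 3 and 5.

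**Figure D5:**
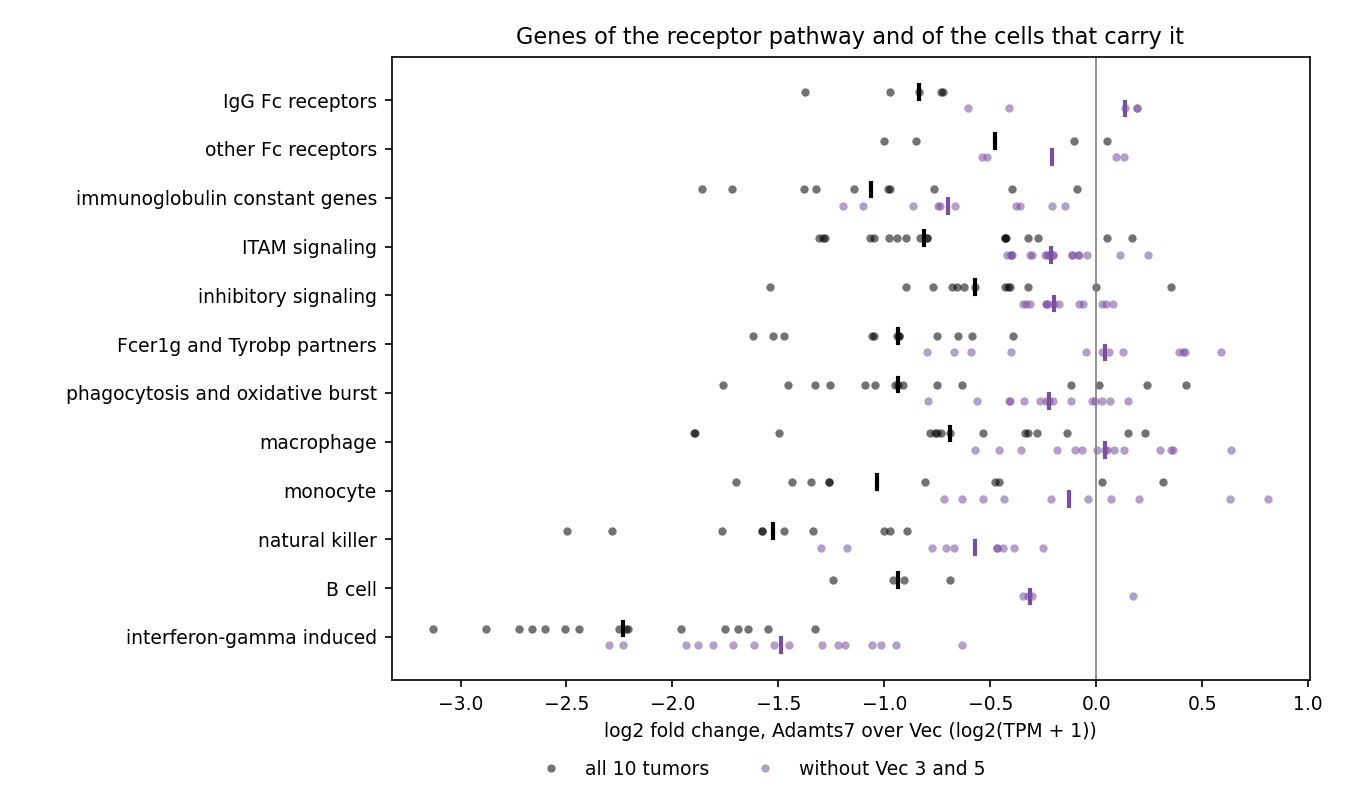
Log2 fold changes, Adamts7 over vector, of the tested genes in each list, with all 10 tumors (black, upper) and without vector tumors 3 and 5 (purple, lower), where 1 point is 1 gene and bars are medians. The medians of the IgG Fc receptors, the Fcer1g and Tyrobp partners and the macrophage markers were -0.84, -0.93 and -0.69 with all tumors and 0.14, 0.04 and 0.04 without vector tumors 3 and 5, while that of the interferon-gamma induced genes was -2.23 and then -1.49.

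Markers of the cells that carry these receptors were measured beside them. All 15 macrophage markers were listed and tested, 13 were negative and 0 were called by limma, with a median of -0.69 and 3 lower at an unadjusted p of 0.05, and the median was 0.04 without vector tumors 3 and 5. Their smallest p belonged to Aif1 (-1.90, SE 0.79), Lyz2 (-1.89, SE 0.81) and Ms4a7 (-1.498, SE 0.65). The summed level of the macrophage markers was 1684 to 3681 TPM among Adamts7 tumors and 1614 to 10209 TPM among vector tumors. Monocyte markers had a median of -1.03, with Ccr2 (-1.70, SE 0.63) and Nr4a1 (-0.46, SE 0.20) among the smallest p. The monocyte median was -0.13 and Ccr2 was -0.72 without vector tumors 3 and 5. Natural killer markers, whose cells carry Fcgr3, had a median of -1.53, or -0.57 without vector tumors 3 and 5, and a summed level of 4.03 to 29.5 TPM among Adamts7 tumors and 18.9 to 262 TPM among vector tumors. B cell markers, whose cells carry Fcgr2b, had a median of -0.93, or -0.31 without these 2 tumors, and summed to 2.27 to 11.9 TPM among Adamts7 tumors and 6.25 to 60.6 TPM among vector tumors, and 4 of 10 of them passed the filter. None of the genes in these 4 lists was listed at 0 in all tumors, and their part in the receptor levels was not tested.

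Of all lists, that of interferon-gamma induced genes had the lowest median log2 fold change. Of 16 such genes 16 were negative with a median of -2.23, and the median was -1.49 without vector tumors 3 and 5. Of the 16, 4 were called lower by limma, beside 0.196% of all tested genes. Relative to the mean of this list, Fcgr4 was higher in Adamts7 tumors, at -1.28 to -0.26 against -2.10 to -1.42 in vector tumors, without overlap. Fcgr2b, Fcgr3 and Fcer1g were likewise higher without overlap relative to this list, and these 4 of 5 receptors stand beside 83.3% of all tested genes, which is no feature of the receptors. Fcgr1 overlapped, with -2.69 to -0.56 over Adamts7 tumors against -3.23 to -2.53 over vector tumors. Ifng itself spanned 0.19 to 1.34 TPM among Adamts7 tumors, against 1.5 to 4.52 TPM among vector tumors 1, 2 and 4, 33.3 TPM in vector tumor 3 and 21.5 TPM in vector tumor 5 (log2 fold change -2.29, SE 0.67, limma adjusted p = 0.135).

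The remaining lists described other cells of the tumors. All 14 T cell markers were negative, with a median of -1.69, 0 called by limma and 14 lower at an unadjusted p of 0.05, and the median was -0.72 without vector tumors 3 and 5. Of 10 tested dendritic cell markers 9 were negative, with a median of -0.99, or -0.42 without these 2 tumors, and 0 called by limma, and 6 were lower at an unadjusted p of 0.05. Of 8 tested cytokine and complement genes that regulate IgG receptors 7 were negative, with a median of -0.67, or -0.11 without these 2 tumors, and 0 called by limma, and 2 were lower at an unadjusted p of 0.05. All 15 melanocyte markers were positive, with a median of 1.68 and 0 called by limma, and the median was 0.36 without vector tumors 3 and 5.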

How the data were processed

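RNA of 10 tumors was measured as bulk poly(A) RNA-seq, and molecular identifiers and spike-in RNA were used in library making per the labels' protocols. The expression table holds log2(TPM + 1) values per gene symbol deposited by the authors, and the submitters' processing notes name RSEM and mm39. Reads that fit several genes are shared out by RSEM's model. TPM keeps no depth, so counting intervals are not given, and the values sum to 995286 to 998019 TPM per tumor. The authors' deposited comparison holds a mean normalized signal, log2 fold changes, a test score and p-values, with DESeq2 named in the submitters' processing notes, and 28805 of its 30040 identifiers were given symbols. Repertoire rows hold other measures deposited by the authors.

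The values were compared by limma 3.58.1 (R 4.3.3) for genes averaging 1 TPM or more. The pseudocount was 1 TPM, the prior variance followed a trend, no covariate entered, and p-values were adjusted by Benjamini-Hochberg with a threshold of 0.05. This scale understates changes of low genes. The test was tested on simulated data with known changes. The simulated noise was drawn independently for each gene, so it does not cover tumors that stand apart over many genes. Python 3.11.15 with pandas 2.3.3 and scipy 1.17.1 served for ratios and exact permutation tests. The receptor genes, gene lists, tests and the omission of vector tumors 3 and 5 were chosen with earlier results of these data known. Genes named are the receptors, all listed Fc receptor and constant genes, up to 3 per other list by p, and the 3 nearest profiles per receptor; Inpp5d, Syk and Pmel were named beside these for their roles. Some genes that this rule names are not reported here. No pair of tumors had identical values. Nothing in the labels says whether tumors share a culture or mouse, so p-values measure the spread between these tumors.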

Additional observations from a re-analysis of the deposited data

Results flagged for a closer look

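Values of 46 sets of group and measure were examined for a tumor far from the rest of its group, and 3 were found, while chance marks about 1 in 20. The log2 TPM ratio of Fcgr4 to Fcgr2b was -1.51 in Adamts7 tumor 1, above the other 4 Adamts7 tumors. The log2 TPM ratio of Fcgr4 to Fcgr3 was -0.229 in vector tumor 4, above the other 4 vector tumors. The IgG1 share of heavy chains was 52.2% in the tumor labelled Adamts7 5, against 12.5% or less in the other 4 Adamts7 tumors.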

How the results depend on the processing

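No alternative brought any of the 5 receptors past an adjusted p of 0.05 by limma. Over 21 alternatives the lowest adjusted p was 0.110 for Fcgr4, 0.116 for Fcgr2b, 0.252 for Fcer1g, 0.327 for Fcgr3 and 0.340 for Fcgr1. Fcgr4 (-1.66 to -0.47) and Fcgr2b (-1.26 to -0.29) stayed negative in all of them. With limma tumor weights the log2 fold changes of Fcgr1, Fcgr3 and Fcer1g turned to 0.17, 0.11 and 0.012. Without vector tumors 3 and 5 they turned to 0.14, 0.19 and 0.19, and to 0.52, 0.43 and 0.40 when the tumor labelled Adamts7 5 was dropped too.

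Called genes over the whole table numbered 34 (4 higher, 30 lower). They numbered 10 with no filter, 1219 with tumor weights, 800 without vector tumors 3 and 5 and the tumor labelled Adamts7 5, and 6 to 655 when 1 tumor was left out, with 655 reached without the tumor labelled Adamts7 5, and the cause was not tested. The split was 8 higher and 21 lower under median-of-ratios scaling, 10 and 20 under quantile normalization and 8 and 27 without the variance trend, and these scalings moved the median of all genes from -0.10 to 0.01 and 0.04. With the replicate block limma called 0 genes (3028 at an unadjusted p of 0.05). The labels name nothing that same-numbered tumors share beyond the number. Deviations of same-numbered tumors from their group means had correlations of -0.28 to 0.26. These values cannot show whether such tumors share a culture or harvest day, since each number holds only 1 tumor per group.

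Heavy chain clonality differed by -0.000769, a sign that turned to 0.00429 without vector tumors 3 and 5 and ranged from -0.057 to 0.028 when 1 tumor was left out. The difference in IgG1 share, 4.51 percentage points, turned to -1.11 without vector tumors 3 and 5 and ranged from -5.30 to 7.74 when 1 tumor was left out. Entropy and clonality without Adamts7 tumor 3 have no value of their own, since that tumor lacks them. The other heavy chain measures and the ratios to Fcgr2b kept their direction, though each log2 ratio moved by over 1.5 times without vector tumors 3 and 5. Set against the interferon-gamma induced list, added after seeing the data, differences of Fcgr1, Fcgr2b, Fcgr3, Fcgr4 and Fcer1g were 1.49, 1.25, 1.499, 0.85 and 1.38, beside -0.05, -0.29, -0.04, -0.69 and -0.16 against macrophage markers.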

Other observations

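Mast cells and basophils carry the IgE receptor, whose signaling chain is also encoded by Fcer1g. Of 9 tested markers of these cells 7 were negative, their median log2 fold change was -0.10, and 0 were called by limma, with 1 lower at an unadjusted p of 0.05. The median was 0.13 without vector tumors 3 and 5. The mast cell tryptase gene Tpsb2 was at 127 ± 63.0 TPM in Adamts7 tumors and 74.98 ± 18.7 TPM in vector tumors (SD, n = 5 each), a log2 fold change of 0.47 (SE 0.53). Gata2, a transcription factor gene, had 0.69 (SE 0.30), and Tpsb2 and Gata2 were the 2 positive genes of this list. The smallest p belonged to Fcer1a (-0.85, SE 0.32), the gene that was lower at an unadjusted p of 0.05. The summed level of this list was 76.6 to 321 TPM in Adamts7 tumors and 139 to 277 TPM in vector tumors.

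Neutrophil markers were low, with 3 of 12 listed genes above the filter and a summed level of 1.95 to 10.6 TPM in Adamts7 tumors and 3.99 to 42.9 TPM in vector tumors. Their log2 fold changes were -1.21 (SE 0.56) for Csf3r, -1.07 (SE 0.71) for Mmp9 and 0.01 (SE 0.49) for S100a8. When vector tumors 3 and 5 were left out they were -0.25, 0.20 and 0.70, in the same order, and Mmp9 was at 12.98 TPM in vector tumor 3 and 22.01 TPM in vector tumor 5. Genes of the type 2 and interleukin-10 response had a median of -0.59 with 9 of 11 negative, which turned to 0.29 with 4 of 11 negative when vector tumors 3 and 5 were left out. Stat6 was at 149 ± 23.5 TPM in Adamts7 tumors and 106 ± 21.2 TPM in vector tumors (SD, n = 5 each, log2 fold change 0.49, SE 0.17, limma adjusted p = 0.171).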
